A study of Homo sapiens with 12 samples.

Results

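The 37 mitochondrially encoded genes are the genes carried by the small circular DNA of the mitochondrion. They were taken as all rows of the count table with a symbol starting with MT-, and make up 37 of 60234 genes. They comprise 13 messenger RNAs, 2 ribosomal RNAs and 22 transfer RNAs, and all 37 passed the filter on low counts. RNA of MDA-MB-231, an established human breast cancer line of the triple-negative class, was sequenced in 12 libraries of 4 groups. The groups were fast cells of batch 2, parental cells of batch 2, fast cells of batch 1 and parental cells of batch 1, with 3 libraries each. Per the labels, fast cells had been captured by their trajectory, and no treatment is listed for parental cells. The series text calls the libraries of a batch technical replicates and also speaks of 2 biological replicates, without saying whether those are the batches. An n of 3 or 6 below is therefore a number of libraries, and p-values measure only the spread between them. Libraries are numbered as in their titles; in batch 1 the table's columns number 3 of them otherwise. The question put to these genes was whether fast and parental cells, and the batches, differ in their mitochondrial transcripts.

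Mitochondrial DNA is transcribed from both strands as long precursors. The heavy-strand promoter gives both ribosomal RNAs, 12 of the messenger RNAs and 14 of the transfer RNAs. The light-strand promoter gives MT-ND6 and the other 8 transfer RNAs. Transfer RNAs punctuate the precursors, and cutting at their ends releases most of the RNAs in between. The 13 proteins are core parts of respiratory chain complexes I, III and IV and of the ATP synthase, and they are made on mitochondrial ribosomes built around the 2 ribosomal RNAs. The other proteins of these complexes, and every protein that transcribes, cuts, modifies and translates mitochondrial RNA, are encoded in the nucleus.

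The transfer RNAs named most often below are short, so their sequences show how little room a read has in them. They are given from GENCODE 29 transcripts, matched by gene ID, as DNA from 5′ to 3′ with the anticodon in capitals. MT-TF and MT-TV flank MT-RNR1 at the start of the heavy-strand precursor and had the largest changes between batches. MT-TD and MT-TM had among the largest changes between fast and parental cells, and MT-TP is the member with a difference of that change between batches.
MT-TF: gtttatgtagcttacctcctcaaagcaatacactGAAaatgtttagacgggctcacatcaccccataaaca
MT-TV: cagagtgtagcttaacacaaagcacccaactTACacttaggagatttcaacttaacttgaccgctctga
MT-TD: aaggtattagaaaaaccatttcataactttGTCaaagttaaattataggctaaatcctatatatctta
MT-TM: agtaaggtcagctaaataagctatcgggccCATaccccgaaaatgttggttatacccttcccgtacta
MT-TP: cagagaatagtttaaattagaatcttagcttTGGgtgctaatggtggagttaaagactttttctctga
These genes are 71, 69, 68, 68 and 68 bases long. Whether reads counted to them came from mature transfer RNAs, from uncut precursors or from reads that ran in from a neighbour was not tested.

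Some neighbouring messenger RNAs share sequence, most of all 1 pair. MT-ATP8 and MT-ATP6, both subunits of the ATP synthase, are read from 1 transcript in 2 frames and overlap over 46 bases, which is 22.2% of MT-ATP8. The shared stretch is shown because reads in it belong to both genes.
MT-ATP8 and MT-ATP6: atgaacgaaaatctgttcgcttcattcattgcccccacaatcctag
MT-ND4L and MT-ND4, subunits of complex I, overlap over 7 bases, and MT-ATP6 and MT-CO3 over 1. How the counting treated reads in overlaps, on the opposite strand or with several matches is not given in the sources. Levels of MT-ATP8, MT-ND4L and of genes with antisense neighbours, such as MT-ND6 beside MT-ND5, are therefore uncertain. So are members with near-identical nuclear copies. Of their windows of 50 bases, the following also occurred in a nuclear transcript: 49.5% for MT-CO1, 46.7% for MT-ATP6, 43.6% for MT-ND2 and 30.6% for MT-CO3. No such window was found for MT-RNR1, MT-ND3, MT-ND4L or any transfer RNA.

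Libraries held 53267145 to 75944907 counts. The line's mesenchymal marker VIM stood at 5071 to 7226 CPM (counts scaled to a common library total), and CDH1, the cadherin of epithelia, at 4 counts or fewer. Several markers of other cells were at or near 0, with at most 4 counts for the leukocyte gene PTPRC, 0 in all 12 libraries for the fibroblast genes DCN and LUM, and at most 8 counts for the endothelial gene CDH5. Others were not: COL1A1, of the fibroblast list, had 450 to 1033 counts and KDR, of the endothelial list, 475 to 851. In fast over parental cells COL1A1 had -0.61, KDR 0.34 and the endothelial TIE1 -1.38 on the log2 scale, all called by the edgeR test described below. The 8 fibroblast markers summed to 10.5 to 11.7 CPM in fast batch 2, 14.1 to 15.1 in parental batch 2, 9.05 to 9.78 in fast batch 1 and 14.4 to 16.2 in parental batch 1. The 7 endothelial markers summed to 11.9 to 13.5 CPM in fast batch 2, 15.2 to 16.9 in parental batch 2, 14.4 to 15.7 in fast batch 1 and 15.3 to 17.2 in parental batch 1. The 8 leukocyte markers summed to at most 0.733 CPM. The 8 luminal epithelial markers, keratins among them, summed to 1008 to 1033 CPM in fast batch 2, 787 to 837 in parental batch 2, 976 to 996 in fast batch 1 and 722 to 767 in parental batch 1. In fast over parental cells KRT19 had 0.94, KRT8 0.36, KRT18 0.23 and GATA3 -0.40 on the log2 scale, all called. The median of the 7 luminal markers tested was 0.01. Any part of these markers in the results was not tested. In all groups but parental batch 2, single libraries were the highest or the lowest for most members. Parental batch 1 replicate 2 had the highest level of its group for 36 of 37 members, and fast batch 1 replicate 3 the lowest of its group for 36 of 37. Fast batch 1 replicate 2 was highest for 32, and fast batch 2 replicate 3 for 26. Fast batch 2 replicate 2 was lowest for 32 and parental batch 1 replicate 3 for 31. Parental batch 1 replicate 2 and fast batch 1 replicate 3 were picked out on these levels. Counts of called members without each of these 2 are given below for fast over parental cells and between batches. All 12 pairs of libraries of 1 group differed by more than counting noise, with an index of dispersion of 3.41 to 8.78.

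Mitochondrially encoded RNAs took the largest share of counts in fast cells of batch 2. Their messenger RNAs took 2.81, 2.23 and 2.68% of counts in fast batch 2 and 2.19, 2.13 and 2.28% in parental batch 2. In batch 1 the shares were 2.29, 2.34 and 1.79% in fast and 2.13, 2.55 and 1.85% in parental libraries. Fast libraries of batch 2 overlapped parental ones only through fast replicate 2, and in batch 1 the populations overlapped as well. As group means, the messenger RNA share was 2.58% ± 0.31 in fast batch 2, 2.2% ± 0.0727 in parental batch 2, 2.14% ± 0.305 in fast batch 1 and 2.17% ± 0.352 in parental batch 1 (SD, n = 3 each).

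The ribosomal RNAs were higher in batch 2 than in batch 1 in both populations, with no overlap between batches. They took 0.538, 0.443 and 0.525% of counts in fast batch 2, against 0.361, 0.40 and 0.386% in parental batch 2. In batch 1 they took 0.319, 0.321 and 0.269% in fast and 0.232, 0.308 and 0.197% in parental libraries. Within batch 2 every fast library lay above every parental library, whereas in batch 1 parental replicate 2 lay among the fast libraries. How cytosolic ribosomal RNA was removed, and whether RNAs were selected by their poly(A) tails, is not stated by the labels.

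The transfer RNAs took 0.0546, 0.0499 and 0.058% in fast batch 2 and 0.0449, 0.042 and 0.0448% in parental batch 2, without overlap. In batch 1 they took 0.0449, 0.0469 and 0.0341% in fast and 0.0361, 0.0516 and 0.0337% in parental libraries, which overlapped. The widest 95% Wilson interval on any of these shares reached 0.0039 percentage points to either side and covers counting error only, so the spread between libraries was far beyond it. In bulk RNA, a change in how many cells are rich in mitochondrial RNA and a change within every cell cannot be told apart.

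**Figure D1:**
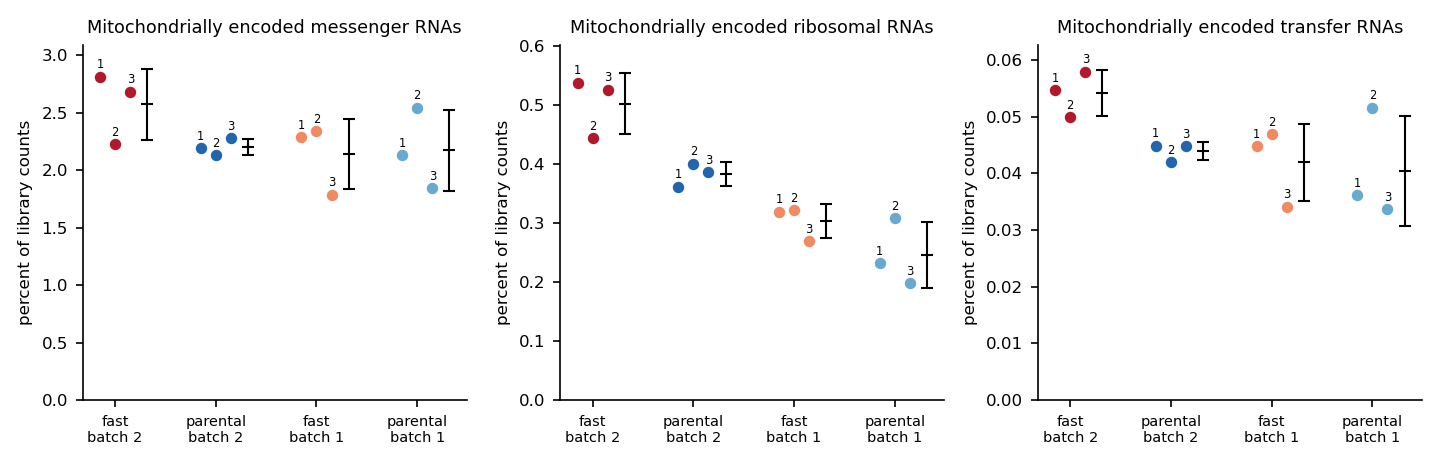
Share of library counts (percent, axis from 0) taken by mitochondrially encoded messenger, ribosomal and transfer RNAs in each library; numbers are replicates, and bars are the mean ± SD of 3 libraries. Parental batch 1 replicate 2 is the highest and fast batch 1 replicate 3 the lowest of its group in the messenger and transfer RNAs. Both batch 2 groups lie above both batch 1 groups in the ribosomal RNAs.

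Levels were compared between genes only per length, as CPM per kb of the GENCODE 29 transcript over all 12 libraries. Among the messenger RNAs, MT-ATP8 and MT-ATP6 stood highest at 4477 ± 683 and 3999.6 ± 619 CPM per kb (SD, n = 12). The lengths used for both include the shared stretch, and how reads in it were counted is not given. The catalytic core subunits of complex IV, which reduces oxygen, followed at 3009.8 ± 421 for MT-CO1, 2785 ± 496 for MT-CO2 and 2783 ± 513 CPM per kb for MT-CO3. The SD over 12 libraries takes in differences between groups, and the order of these 3 genes differed by group. The means of MT-CO1, MT-CO2 and MT-CO3 were 3385, 3333 and 3445 CPM per kb in fast batch 2. They were 2898, 2683 and 2523 in parental batch 2. In batch 1 they were 2889, 2684 and 2852 in fast and 2868, 2440 and 2310 in parental cells. Complex I subunits ran from 2278 ± 292 for MT-ND4 through 2044 ± 288 for MT-ND4L, 2008 ± 275 for MT-ND2, 1437 ± 276 for MT-ND1 and 1379 ± 189 for MT-ND3 to 677 ± 94.3 CPM per kb for MT-ND5. MT-CYB, the cytochrome b of complex III, stood at 1000.2 ± 124. MT-ND6, the one messenger RNA from the light-strand promoter, was the lowest at 591 ± 88.2 CPM per kb. Its mean was below that of MT-ND5 in every group. The means of MT-ND6 and MT-ND5 were 638 and 725 CPM per kb in fast batch 2 and 571 and 651 in parental batch 2. In batch 1 they were 550 and 644 in fast and 605 and 687 in parental cells.

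Of the ribosomal RNAs, MT-RNR2 of the large subunit stood at 1993 ± 602 CPM per kb and MT-RNR1 of the small subunit at 509 ± 172. The level of MT-RNR2 was close to those of MT-ND4L and MT-ND2 only as a mean over all libraries. In fast batch 2, MT-RNR2 stood at 2814 CPM per kb, against 2176 for MT-ND4L and 2348 for MT-ND2. In parental batch 2 these values were 2088, 1919 and 1910. They were 1741, 1987 and 1934 in fast batch 1 and 1329, 2092 and 1840 in parental batch 1. Transfer RNAs ranged from 1069 ± 324 CPM per kb for MT-TL1, a leucine transfer RNA next to MT-RNR2, to 41.8 ± 11 for the aspartate transfer RNA MT-TD. The lowest member, MT-TD, had 92 counts in the library where it was lowest.

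The comparison of fast with parental cells, with batch as a term over all 12 libraries, called 13 of 37 members higher and 0 lower in fast cells (edgeR's quasi-likelihood test, Benjamini-Hochberg adjusted p under 0.05). Of all 22668 genes tested, 63.4% were called, 31.9% higher and 31.5% lower. The 35.1% of members called higher is near the background in that direction. The log2 fold change was above 0 for 34 of 37 members, with a median of 0.19, against a median of 0.01 over all genes. The median absolute log2 fold change of all genes was 0.32. In batch 2, 12 members were higher and 0 lower (background 56% called, 27.4% higher and 28.6% lower). In batch 1, 3 were higher and 0 lower (background 56.1% called, 29% higher and 27.1% lower). At an unadjusted p under 0.05, 16 members were called in batch 2 and 5 in batch 1. By level alone, all fast libraries lay above all parental ones for 18 of 37 members in batch 2 and 2 in batch 1, and below for none (background 30% and 31.4% above, 31.2% and 29% below). These comparisons share libraries and are given side by side, not as support for each other.

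The counts moved with single libraries. Over all 12 libraries, 22 members were higher without parental batch 1 replicate 2, 20 without fast batch 1 replicate 3 and 8 without fast batch 2 replicate 3. Leaving out the highest parental or the lowest fast library widens the change of fast over parental cells by construction. In batch 1 the count was 15 without parental replicate 2, 8 without fast replicate 3 and 1 without parental replicate 3. In batch 2 it was 6 without fast replicate 3 or parental replicate 2, 7 without parental replicate 3 and 14 without fast replicate 2. All libraries share 1 estimate of the spread, so batch 1 libraries moved it too. The batch 2 count was 17 without parental batch 1 replicate 2 and 15 without fast batch 1 replicate 3.

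**Figure D2:**
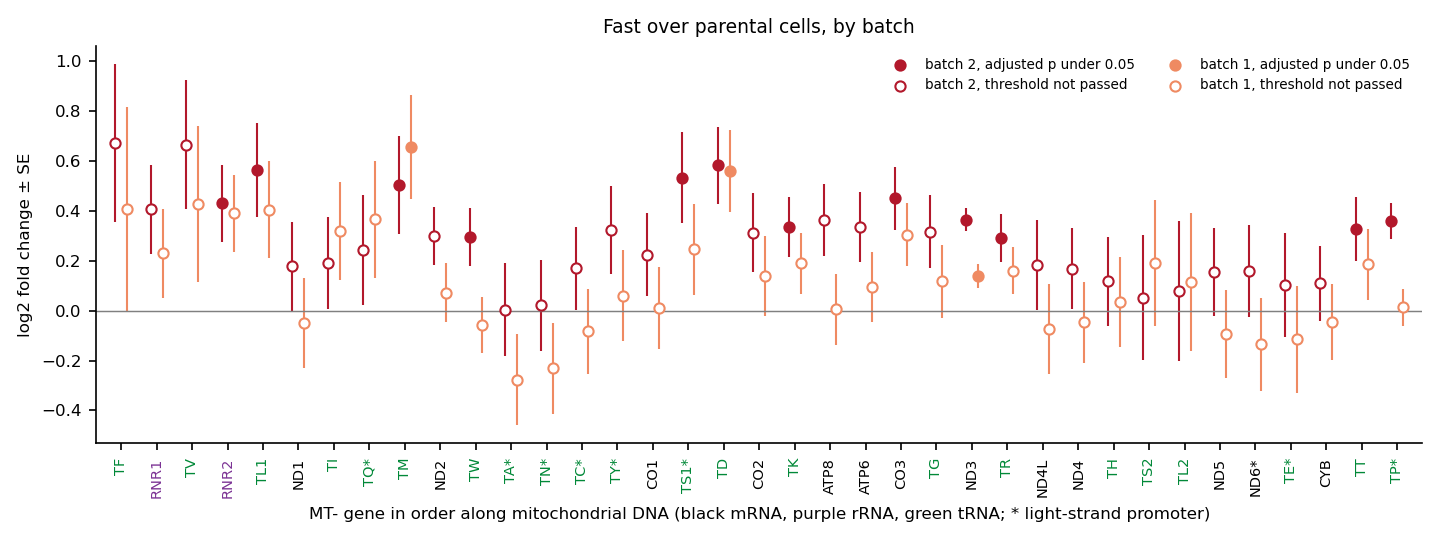
Log2 fold change of fast over parental cells (y axis, ± SE) for the 37 genes in their order along mitochondrial DNA (x axis), in batch 2 and batch 1; filled points have an adjusted p under 0.05. In batch 2 all 37 values lie above 0, and in batch 1, 26 do; MT-TM, MT-TD and MT-ND3 are filled in both.

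Of the 13 messenger RNAs, MT-CO3 and MT-ND3 rose in fast cells and none fell. MT-CO3 encodes the third core subunit of cytochrome c oxidase. It had 2913, 2469.8 and 2720.0 CPM (normalised by TMM, edgeR's scaling for composition) in fast batch 2, against 1932, 1909 and 2093 in parental batch 2. In batch 1 it had 2373, 2408 and 1928 CPM in fast and 1718, 2129 and 1586 CPM in parental libraries. The populations did not overlap in batch 2, and in batch 1 fast replicate 3 lay between the parental libraries. The log2 fold change over all libraries was 0.38 ± 0.09 SE (edgeR adjusted p = 0.00384), with 0.45 in batch 2 and 0.30 in batch 1, where the adjusted p was 0.0725. MT-CO3 is one of the members that share windows with a nuclear copy.

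MT-ND3, a small membrane subunit of complex I, shares no such window. It had 570.4, 553 and 606 CPM in fast batch 2 and 455, 457 and 432 CPM in parental batch 2. It had 455, 474 and 461 CPM in fast batch 1 and 449, 433 and 379 CPM in parental batch 1. Fast and parental libraries did not overlap in either batch, although parental batch 2 overlapped fast batch 1. Its log2 fold change was 0.25 ± 0.05 SE over all libraries (edgeR adjusted p = 0.000787), 0.36 in batch 2 (adjusted p = 6.73e-07) and 0.14 in batch 1 (adjusted p = 0.0149). The batch 1 call was lost under 8 of 22 alternatives, DESeq2 and limma-voom among them.

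The other 11 messenger RNAs did not pass the threshold over all libraries, with log2 fold changes of 0.01 to 0.23. By complex, 1 of 7 subunits of complex I, 0 of 1 of complex III, 1 of 3 of complex IV and 0 of 2 of the ATP synthase were called. The median log2 fold changes were 0.06 for complex I, 0.23 for complex IV and 0.20 for the ATP synthase, and MT-CYB stood at 0.03 ± 0.10 SE. The long complex I messages MT-ND4 and MT-ND5 had 0.06 ± 0.11 SE and 0.03 ± 0.12 SE. MT-ATP6 had 0.22 ± 0.10 SE (edgeR adjusted p = 0.0913) and MT-CO1 had 0.12 ± 0.12 SE (adjusted p = 0.414). A value that missed the threshold does not show that the populations were alike. In batch 2 the largest of these uncalled values was 0.36 ± 0.14 SE for MT-ATP8, whose fast and parental libraries did not overlap there.

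Both ribosomal RNAs rose in fast cells over all libraries. MT-RNR2 had 4708, 3847 and 4604 CPM in fast batch 2 and 3092, 3445 and 3230.2 CPM in parental batch 2, and 2857, 2868 and 2419 CPM in fast batch 1 and 1998, 2557 and 1661 CPM in parental batch 1. Its log2 fold change was 0.41 ± 0.10 SE (edgeR adjusted p = 0.00604), with 0.43 in batch 2 and 0.39 in batch 1. Parental batch 1 replicate 2 lay above fast batch 1 replicate 3, and the other libraries of each batch kept apart by population. MT-RNR1 had 725, 645 and 753 CPM in fast batch 2, 501, 538 and 564 CPM in parental batch 2, 395, 395 and 345 CPM in fast batch 1 and 276, 432 and 260.4 CPM in parental batch 1. Here parental batch 1 replicate 2 was the highest library of batch 1. The log2 fold change of MT-RNR1 was 0.32 ± 0.12 SE, at an adjusted p of 0.0458 that 16 of 23 alternatives put above the threshold. Of 19 replication-dependent histone and small structural RNAs tested, most of which are known to carry no poly(A) tail, 2 were higher and 8 lower (background 31.9% higher and 31.5% lower), with a median of -0.41. Any part of RNA selection in the values of the ribosomal RNAs was not tested.

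Of the 22 transfer RNAs, 9 rose in fast cells over all libraries and none fell: MT-TV, MT-TL1, MT-TM, MT-TS1, MT-TD, MT-TK, MT-TR, MT-TT and MT-TP, which carry valine, leucine, methionine, serine, aspartate, lysine, arginine, threonine and proline. Of these, 7 come from the heavy-strand promoter. MT-TD had 3.78, 3.7 and 3.92 CPM in fast batch 2 against 2.8, 2.16 and 2.67 CPM in parental batch 2, and 3.12, 3.16 and 2.68 CPM in fast batch 1 against 2.05, 2.62 and 1.43 CPM in parental batch 1. The populations did not overlap in either batch. MT-TD had a log2 fold change of 0.57 ± 0.11 SE (edgeR adjusted p = 4.97e-05), 0.58 in batch 2 and 0.56 in batch 1 (adjusted p = 0.0012 and 0.00326). Without parental replicate 3 its batch 1 call was lost.

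MT-TM, next to MT-ND2, had 5.95, 5.02 and 6.27 CPM in fast batch 2 and 4.77, 3.58 and 3.85 CPM in parental batch 2. It had 5.11, 5.6 and 3.49 CPM in fast batch 1 and 2.63, 4.17 and 2.27 CPM in parental batch 1, where fast replicate 3 lay below parental replicate 2. Its log2 fold change was 0.57 ± 0.14 SE (edgeR adjusted p = 0.00177), with 0.50 in batch 2 and 0.65 in batch 1, both called. The batch 2 call of MT-TM was lost under 5 and the batch 1 call under 3 of 22 alternatives. MT-TL1, between MT-RNR2 and MT-ND1, had 122, 98 and 122 CPM in fast batch 2, 78.7, 73.8 and 79.1 CPM in parental batch 2, 82, 79.8 and 59.1 CPM in fast batch 1 and 52.1, 71.6 and 43.6 CPM in parental batch 1. Its populations kept apart in batch 2 and overlapped in batch 1. The log2 fold change of MT-TL1 was 0.49 ± 0.13 SE (adjusted p = 0.00881), called in batch 2 (0.56) and not in batch 1 (0.40, adjusted p = 0.114). Its batch 2 call was lost under 5 of 22 alternatives, all of them single libraries left out.

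MT-TS1, a serine transfer RNA of the light-strand promoter, had 40.3, 42.3 and 48.5 CPM in fast batch 2 and 38.4, 29 and 23.4 CPM in parental batch 2. In batch 1 it had 37.7, 41 and 35.2 CPM in fast and 34, 35.7 and 26.6 CPM in parental libraries, which overlapped. Over all libraries it had a log2 fold change of 0.39 ± 0.13 SE (edgeR adjusted p = 0.0258), a call lost under 6 of 23 alternatives, the replicate block among them. Its batch 2 call was lost under 7 of 22. MT-TS1 lies next to MT-CO1 on the other strand. MT-TK, between MT-CO2 and MT-ATP8, had 8.31, 5.55 and 7.46 CPM in fast batch 2 and 5.33, 6.07 and 5.52 CPM in parental batch 2, then 6.94, 7.23 and 5.82 CPM in fast batch 1 and 5.98, 6.71 and 4.9 CPM in parental batch 1. Fast and parental libraries of MT-TK overlapped in both batches, and its log2 fold change was 0.26 ± 0.09 SE (adjusted p = 0.0125), a call lost without fast batch 2 replicate 1.

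MT-TR, between MT-ND3 and MT-ND4L, had 10.6, 10.7 and 12.3 CPM in fast batch 2 and 8.45, 8.5 and 10.5 CPM in parental batch 2. It had 12.6, 13.5 and 11.1 CPM in fast batch 1 and 11.2, 12.6 and 9.48 CPM in parental batch 1. The populations were apart in batch 2 and overlapped in batch 1, and the log2 fold change was 0.22 ± 0.07 SE (edgeR adjusted p = 0.00729). MT-TT, behind MT-CYB at the end of the heavy-strand genes, had 12.1, 12.9 and 13.7 CPM in fast batch 2, 11.2, 9.45 and 10.3 CPM in parental batch 2, 8.26, 8.15 and 6.25 CPM in fast batch 1 and 5.49, 8.65 and 5.83 CPM in parental batch 1. MT-TT had a log2 fold change of 0.26 ± 0.10 SE (adjusted p = 0.0244), a call lost under 6 of 23 alternatives, library totals alone and 4 single libraries left out among them. MT-TW, which carries tryptophan, had 5.24, 4.35 and 5.96 CPM in fast batch 2, 4.43, 4.13 and 4.13 CPM in parental batch 2, 5.69, 6.69 and 5.59 CPM in fast batch 1 and 6.37, 6.93 and 5.45 CPM in parental batch 1. It was called in batch 2 (0.29 ± 0.12 SE, adjusted p = 0.0297) although its libraries overlapped, and not over all libraries (0.11), and the call was lost under 4 of 22 alternatives.

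MT-TI, MT-TQ, MT-TA, MT-TN, MT-TC, MT-TY, MT-TG, MT-TH, MT-TS2, MT-TL2 and MT-TE were called in none of the 6 comparisons. MT-TA and MT-TN, which carry alanine and asparagine, had the lowest values over all libraries at -0.14 ± 0.13 SE and -0.10 ± 0.13 SE. Parental batch 1 replicate 2 had the highest level of both, and without it the values were 0.01 and 0.03, on the other side of 0. The neighbours MT-TH, MT-TS2 and MT-TL2 behind MT-ND4 stood at 0.08, 0.12 and 0.10, with SE of up to 0.19.

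**Figure D3:**
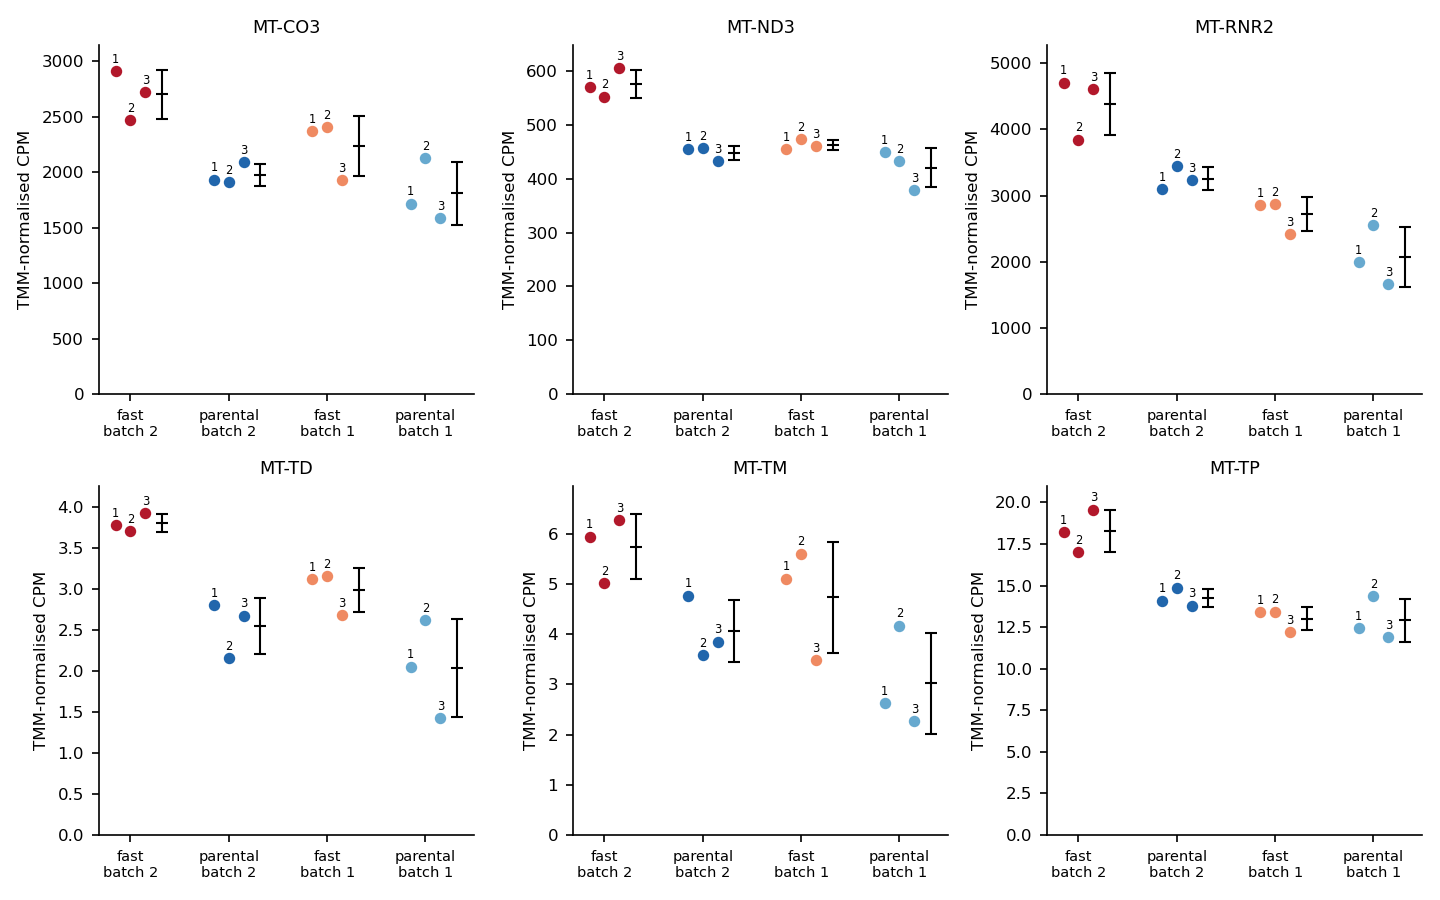
TMM-normalised CPM (axes from 0) of 6 members in each library; numbers are replicates, and bars are the mean ± SD of 3 libraries. MT-ND3 and MT-TD keep fast above parental libraries in each batch, while MT-TP does so in batch 2 and overlaps in batch 1.

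The change of fast over parental cells differed between the batches for 1 member, MT-TP, the proline transfer RNA and the last gene of the set. It had 18.2, 17 and 19.6 CPM in fast batch 2 against 14.1, 14.9 and 13.8 CPM in parental batch 2. In batch 1 it had 13.4, 13.4 and 12.2 CPM in fast and 12.4, 14.4 and 11.9 CPM in parental libraries. The populations were apart in batch 2 and overlapped in batch 1. The log2 fold change was 0.36 ± 0.07 SE in batch 2 (edgeR adjusted p = 3.52e-05) and 0.01 ± 0.08 SE in batch 1 (adjusted p = 0.896), a difference of 0.34 ± 0.10 SE (adjusted p = 0.0398). Of all genes, 5.4% were called, 1.75% with a higher and 3.65% with a lower change in batch 2, which are 396 and 827 genes; scaled by RLE size factors in place of TMM these were 575 and 522. The call for MT-TP was lost under 7 of 21 alternatives, limma-voom and the removal of fast batch 2 replicate 3, parental batch 2 replicate 1, parental batch 1 replicate 2 or any fast batch 1 library. MT-ND3 came next, with a difference of 0.22 ± 0.07 SE and an adjusted p of 0.0507. The difference was above 0 for 32 of 37 members with a median of 0.22, and the SE of the uncalled ones reached 0.52.

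The make-up of the mitochondrial messenger RNAs, which does not depend on scaling between libraries, separated the populations for some genes. MT-CO3 made up 10.2, 10.9 and 9.93% of the counts of the 13 messenger RNAs in fast batch 2, against 8.86, 8.99 and 9.34% in parental batch 2. In batch 1 it made up 10.2, 10.1 and 10.5% in fast and 8.22, 8.6 and 8.83% in parental libraries. All 6 fast libraries lay above all 6 parental libraries, over 9.93% to 10.9% and 8.22% to 9.34%. The same held for MT-ATP6, with 12% to 12.5% in fast and 11.4% to 11.9% in parental libraries.

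MT-CYB lay on the other side. It made up 4.67, 4.76 and 4.86% in fast batch 2, 5.41, 5.26 and 5.2% in parental batch 2, 4.95, 4.89 and 4.79% in fast batch 1 and 5.21, 5.21 and 5.15% in parental batch 1, so that all 6 fast libraries were below all 6 parental ones. MT-ND4, MT-ND4L and MT-ND5 were below parental libraries within each batch but overlapped across batches; MT-ND4 made up 12.6% to 14% in fast and 13.6% to 14.9% in parental libraries. The widest 95% Wilson interval on these shares reached 0.0798 percentage points to either side. These shares were not tested, since they sum to a whole and a rise of one lowers the rest.

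**Figure D4:**
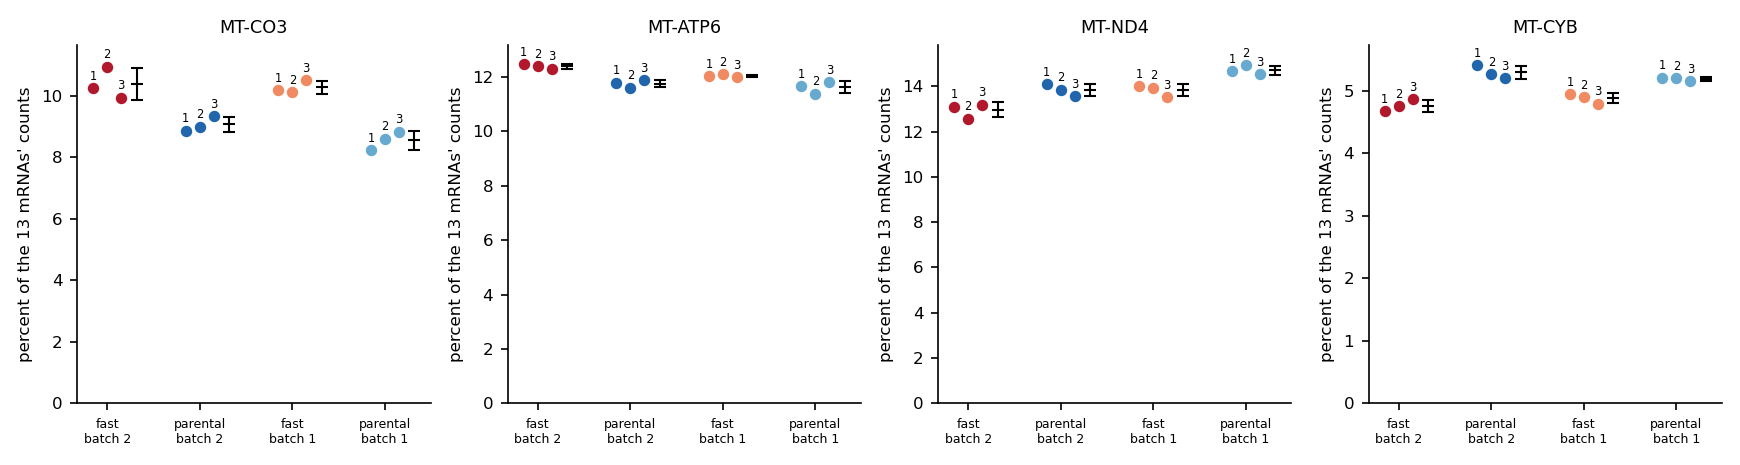
Share (percent, axes from 0) of MT-CO3, MT-ATP6, MT-ND4 and MT-CYB in the counts of the 13 mitochondrial messenger RNAs, in each library; numbers are replicates, and bars are the mean ± SD of 3 libraries. MT-CO3 and MT-ATP6 are higher, and MT-CYB lower, in all 6 fast than in all 6 parental libraries.

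Batch 2 was set against batch 1 within each population. In fast cells 8 of 37 members were higher and 0 lower in batch 2 (background 27.2% called, 11.4% higher and 15.7% lower), and in parental cells 5 were higher and 2 lower (background 30% called, 15.2% higher and 14.8% lower). By level alone, batch 2 lay above batch 1 without overlap for 14 members in fast cells (background 17.1%) and 6 in parental cells (20%), and below for 0 (23.2%) and 2 (20.1%). MT-TF and MT-TV, near the heavy-strand promoter, changed most. MT-TF, the phenylalanine transfer RNA that opens the precursor, had 25.5, 23 and 27 CPM in fast batch 2 against 6.24, 7.08 and 3.66 CPM in fast batch 1. In parental cells it had 14.4, 16 and 16.9 CPM in batch 2 and 2.37, 7.52 and 2.96 CPM in batch 1. Batches did not overlap in either population, and the log2 fold change of batch 2 over batch 1 was 2.13 ± 0.35 SE in fast (edgeR adjusted p = 0.00211) and 1.87 ± 0.37 SE in parental cells (adjusted p = 0.0051). Fast over parental cells, MT-TF had 0.57 ± 0.25 SE over all libraries (adjusted p = 0.0734).

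MT-TV, the valine transfer RNA between the ribosomal RNAs, had 23.3, 21.2 and 24.6 CPM in fast batch 2 against 8.14, 7.53 and 5.77 CPM in fast batch 1, and 13.2, 14.1 and 16.2 CPM in parental batch 2 against 3.74, 8.53 and 3.66 CPM in parental batch 1. The batches were apart in both populations. Between batches the log2 fold change was 1.68 ± 0.28 SE in fast and 1.44 ± 0.29 SE in parental cells (edgeR adjusted p = 0.00211 and 0.00567). Fast over parental cells, it was 0.57 ± 0.20 SE (adjusted p = 0.0297), a call lost under 9 of 23 alternatives. The 2 ribosomal RNAs were higher in batch 2 too. MT-RNR1 had 0.90 ± 0.18 SE in fast and 0.73 ± 0.18 SE in parental cells, and MT-RNR2 had 0.69 ± 0.16 SE and 0.65 ± 0.16 SE, all 4 called. Fitting only the libraries of the contrast ended the parental calls of MT-TV, MT-RNR1 and MT-RNR2.

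MT-TL1, which follows, was called in fast cells (0.63 ± 0.19 SE, edgeR adjusted p = 0.0403) and not in parental cells (0.47 ± 0.19 SE). The call in fast cells was lost under 12 of 22 alternatives, with an adjusted p of up to 0.126. Among the 28 genes of the heavy-strand promoter, the first 6 had a median of 0.80 in fast and 0.69 in parental cells, against 0.23 and -0.01 for the other 22. Across these genes Spearman's rho between position and log2 fold change was -0.62 in fast and -0.61 in parental cells. The gradient was not particular to the batches. For fast over parental cells rho was -0.60 over all libraries, -0.65 in batch 2 and -0.50 in batch 1. The first 6 genes there had a median of 0.45 over all libraries, against 0.20 for the other 22. The genes share libraries and a precursor, and the gradient is a description. At the far end MT-TT stood out again, with 0.77 ± 0.13 SE in fast and 0.63 ± 0.14 SE in parental cells, both called.

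The remaining called members differed between batches in 1 population. MT-ND3 (0.32 ± 0.05 SE) and MT-TP (0.49 ± 0.07 SE) were higher in batch 2 of fast cells (edgeR adjusted p = 2.41e-05 and 1.21e-06). In parental cells they had 0.09 and 0.14, without a call. MT-TW and MT-TR were lower in batch 2 of parental cells, at -0.56 ± 0.12 SE and -0.28 ± 0.10 SE on the log2 scale (adjusted p = 0.000179 and 0.0259), and had -0.21 and -0.15 in fast cells. The call of MT-TR was lost under 5 of 22 alternatives. Without parental batch 1 replicate 2, 12 members were higher in batch 2 of fast cells in place of 8, and 11 in batch 2 of parental cells in place of 5. Without fast batch 1 replicate 3 these counts were 7 and 5. Without robust estimation 19 were higher in fast cells. What a batch stands for is not given in the labels, so separate biological replicates, RNA preparation, sequencing and growth cannot be told apart.

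**Figure D5:**
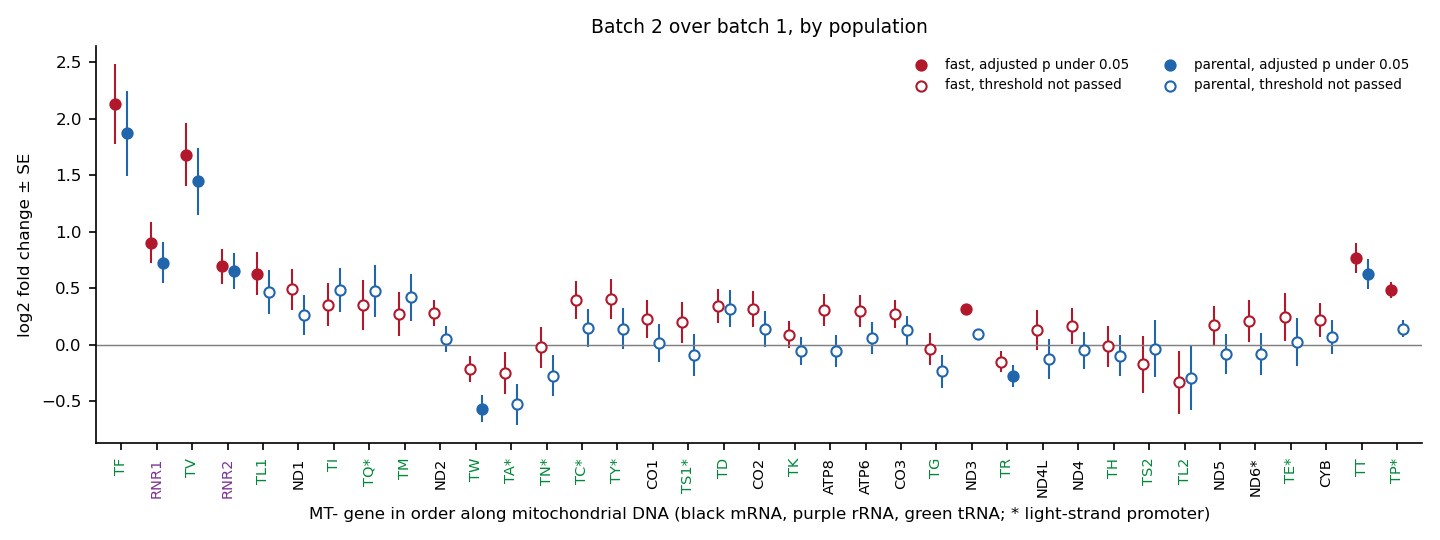
Log2 fold change of batch 2 over batch 1 (y axis, ± SE) for the 37 genes in their order along mitochondrial DNA (x axis), in fast and parental cells; filled points have an adjusted p under 0.05. The first genes, MT-TF, MT-RNR1, MT-TV and MT-RNR2, are filled in both populations, and so is MT-TT near the end.

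Ratios within a library need no scaling between libraries. Ribosomal RNA counts were 19.1, 19.9 and 19.6% of messenger RNA counts in fast batch 2 and 16.5, 18.8 and 16.9% in parental batch 2. They were 13.9, 13.7 and 15.1% in fast batch 1 and 10.9, 12.1 and 10.7% in parental batch 1. Every fast library was above every parental library of its batch, and every batch 2 library above every batch 1 library. MT-TF counts were 3.52, 3.57 and 3.58% of MT-RNR1 counts in fast batch 2, 2.88, 2.98 and 3.0% in parental batch 2, 1.58, 1.79 and 1.06% in fast batch 1 and 0.857, 1.74 and 1.14% in parental batch 1. So MT-TF differed between batches by more than the gene it adjoins.

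MT-ND6, from the light strand, had 25.4% ± 1.25 of the counts of MT-ND5 in fast batch 2, 25.4% ± 1.49 in parental batch 2, 24.8% ± 0.181 in fast batch 1 and 25.6% ± 0.475 in parental batch 1 (SD, n = 3 each). All parental batch 1 libraries lay above all fast batch 1 libraries, and the other groups overlapped. The ratio of MT-ND4L to MT-ND4 counts stayed within 18.1% to 20.3% over all libraries. The ratio of MT-RNR2 to MT-RNR1 was 6.19 ± 0.272 in fast batch 2, 6.1 ± 0.342 in parental batch 2, 7.17 ± 0.143 in fast batch 1 and 6.51 ± 0.66 in parental batch 1. Every fast batch 2 library, at 5.97 to 6.49, lay below every fast batch 1 library, at 7.0 to 7.27, and the parental batches overlapped.

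Nuclear copies are stretches of mitochondrial DNA that have been inserted into chromosomes, and their rows can collect reads of the mitochondrial genes. The table held 194 such rows, of which 18 passed the filter and 5 took 96.2% of their counts. Together they took 0.0595% to 0.115% of a library. MTND2P28 and MTATP6P1 had no call in fast over parental cells (log2 fold change 0.19 ± 0.10 SE, adjusted p = 0.123, and 0.21 ± 0.11 SE, adjusted p = 0.124), close to the 0.19 and 0.22 of MT-ND2 and MT-ATP6. MTND1P23 (0.11 ± 0.07 SE, adjusted p = 0.217) and MTATP8P1 (0.30 ± 0.12 SE, adjusted p = 0.054) had none either. MTRNR2L12, which resembles MT-RNR2, rose in fast cells (0.43 ± 0.07 SE, adjusted p = 5.21e-05).

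Between batches more of the copies were called, but not all of those with most counts. MTND2P28 was called in neither population (0.37 ± 0.14 SE, edgeR adjusted p = 0.0878 in fast cells, and 0.17 ± 0.14 SE, adjusted p = 0.415 in parental cells). MTATP6P1 and MTATP8P1 were called higher in batch 2 of fast cells only. MTND1P23 and MTRNR2L12 were called higher in both populations. MTRNR2L12 had 36.9, 30.4 and 33 CPM in fast batch 2 against 13, 14.8 and 11.5 CPM in fast batch 1, and 22.5, 25 and 25.6 CPM in parental batch 2 against 9.7, 11.8 and 8.52 CPM in parental batch 1. Batches did not overlap in either population. Its log2 fold change of batch 2 over batch 1 was 1.34 ± 0.11 SE, adjusted p = 1.16e-07 in fast cells, against 0.69 for MT-RNR2. Of the 18 tested copies, 13 were higher in batch 2 of fast cells and 12 in parental cells, and none was lower (background 11.4% and 15.2% higher). In fast over parental cells 5 of 18, or 27.8%, were higher, near the background of 31.9%, and 0 were lower. The count was 10 without parental batch 1 replicate 2 and 9 without fast batch 1 replicate 3. How reads were split between members and copies was not tested.

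The nuclear genes that act on mitochondrial RNA moved in both directions in fast cells, where 31.9% of all genes were higher and 31.5% lower. Of 26 genes of mitochondrial DNA transcription and replication, 11 were higher and 9 lower, with a median of 0.03. TFAM, which packs mitochondrial DNA and activates its transcription, rose by 0.34 ± 0.03 SE, adjusted p = 3.00e-13, and averaged 176 ± 2.65 CPM in the fast libraries against 139 ± 6.23 CPM in the parental ones (SD, n = 6 each). The RNA polymerase POLRMT stood at 0.01 ± 0.03 SE, adjusted p = 0.782, and the initiation factor TFB2M at 0.11 ± 0.04 SE, adjusted p = 0.0254, a call lost under 5 of 23 alternatives. MGME1, a mitochondrial DNA exonuclease, rose by 0.43, while the MTERF family members MTERF2 and MTERF3 had -0.91 and -0.43, both lower.

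Of 27 genes of mitochondrial RNA processing and decay, 15 were higher and 9 lower, with a median of 0.11. LRPPRC and SLIRP, partners that stabilise mitochondrial messenger RNAs, went opposite ways, at 0.11 ± 0.02 SE, adjusted p = 0.000118 and -0.33 ± 0.03 SE, adjusted p = 2.36e-10. HSD17B10, a subunit of the enzyme that cuts the 5′ ends of the transfer RNAs, was lower (-0.48 ± 0.03 SE, adjusted p = 1.87e-16). The degradation enzyme PNPT1 stood at 0.03 ± 0.03 SE, adjusted p = 0.442, and its helicase SUPV3L1 rose (0.17 ± 0.03 SE, adjusted p = 7.06e-05). Among 27 genes of mitochondrial RNA modification, 7 were higher and 15 lower (median -0.15). TRIT1, GTPBP3 and TRNT1, which modify transfer RNAs or add their CCA ends, had -0.71, -0.58 and -0.49, and TRUB2, a pseudouridine synthase, had 0.56, all called. Cytosolic or nuclear roles of some of these genes are not separated here.

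For translation, 12 of 35 factors and synthetases were higher and 11 lower, and of 83 mitoribosomal proteins tested 33 were higher and 31 lower, with medians of 0.02 in both lists. GFM2 and MRRF, which recycle mitochondrial ribosomes, rose by 0.85 and 0.72 on the log2 scale, and FARS2, the phenylalanine synthetase, had -0.78. Biogenesis regulators had 4 higher and 6 lower of 12 tested. Proteostasis genes had 10 higher and 2 lower of 17, a count of 12 called that was 6 with library totals alone. AFG3L2 and SPG7, subunits of an inner-membrane protease, rose by 0.77 and 0.70, and the chaperone HSPA9 had -0.74.

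The nuclear-encoded partners of the 13 proteins were also split. Higher and lower genes numbered 11 and 17 of 37 for complex I, 4 and 3 of 9 for complex III, 6 and 4 of 11 for complex IV and 9 and 6 of 18 for the ATP synthase. Complex II, which has no mitochondrially encoded subunit, had 2 higher and 1 lower of 4. NDUFV2 rose (0.84 ± 0.03 SE, adjusted p = 7.97e-24) and NDUFA1 fell (-0.84 ± 0.04 SE, adjusted p = 4.45e-20) within complex I. In complex IV, COX4I1 had 0.54 and COX7B -0.62, beside the 0.38 of MT-CO3. ATPIF1, the inhibitor protein of the ATP synthase, had -1.37 ± 0.03 SE, adjusted p = 5.99e-29. Assembly factors had 14 higher and 21 lower of 45. No list was tested as a set.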

How the data were processed

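The values deposited by the authors are raw counts per gene, with no normalization, of 60234 genes in 12 libraries of a cell line. The submitters' processing notes name Trimmomatic 0.32, STAR 2.3.0e and featureCounts 1.4.4, and the builds hg19 and GRCh37. Strand, multiple matches and overlaps in counting are not given in the sources used here. Per the labels, total RNA was extracted from cultured cells.

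These counts were fitted in edgeR 4.0.16 under R 4.3.3 by robust quasi-likelihood, after TMM scaling and the default filter (minimum count 10, minimum total 15), which left 22668 genes. Fast over parental had batch as a term, and the other comparisons came from a fit of the 4 group means. Adjusted p-values are Benjamini-Hochberg values over all genes, with a threshold of 0.05. Total counts of 53267145 to 75944907 per library set the counting precision, and intervals cover counting error only. Alternatives were other scalings, filters, tools (DESeq2 1.42.0, limma-voom with limma 3.58.1), a replicate block, sums of libraries and leaving out each library.

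Members and gene lists were chosen with earlier results of these data known. Values in every library are given for members called in any comparison at a mean of at least 100 counts. Of each partner list, at most 5 called genes with the largest change at a mean of at least 5 CPM qualified, plus TFAM, POLRMT, TFB2M, LRPPRC, SLIRP, PNPT1 and SUPV3L1, and of nuclear copies the 5 with most counts. List entries were matched by gene ID (288) or symbol (322). GENCODE 29, of another build, gave order, strand, length and sequence by gene ID, and no coordinates are used. The steps were tested on simulated counts, where the largest absolute median error was 0.0271 on the log2 scale. Those counts were drawn for each gene on its own. They hold no shift of single libraries shared by the members, so they do not test the calls under such shifts.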

Additional observations from a re-analysis of the deposited data

Results flagged for a closer look

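MT-TP, the proline transfer RNA, is singled out because its change of fast over parental cells differed between the batches in a test of the difference itself, by 0.34 on the log2 scale (edgeR's quasi-likelihood test, adjusted p = 0.0398). It was 0.36 in batch 2 and 0.01 in batch 1, and in batch 2 all 3 fast libraries lay above all 3 parental libraries. The call did not hold in limma-voom, where 0 members had such a difference. Over the alternatives its adjusted p ran from 0.00376 to 0.178.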

How the results depend on the processing

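No called value changed sign under any alternative that was run. Over 6632 values of members and named partner genes, 189 that were called in neither setting changed sign. Values per gene stayed on their side of the threshold in 3419 of the leave-one-library-out fits, with 84 calls lost and 73 gained, and in 2884 of the other fits, with 45 lost and 127 gained. In fast over parental cells, MT-TM, MT-TD, MT-CO3 and MT-ND3 kept their calls under all 23 alternatives, and MT-RNR1 lost its call under 16.

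Without robust estimation, members higher numbered 22 over all libraries, 22 in batch 2, 11 in batch 1 (1 lower), 3 for the difference, 19 between batches of fast and 9 (5 lower) between batches of parental cells. Without a batch term 6 were higher over all libraries, and on sums of the libraries, 23. With no filter, 5 were higher in batch 1, 2 for the difference and 8 between batches of parental cells. Fitting only the libraries of a contrast gave 1 higher in batch 1, 1 lower between batches of fast and 2 higher between batches of parental cells; for the difference these are the same 12 libraries, so it was not run. For the difference, RLE factors, library totals alone, TMM on nuclear genes, a filter at 1 CPM and DESeq2 each gave 2, and limma-voom 0. Called genes of transcription and replication numbered 13 on sums. Proteostasis genes called numbered 6 with library totals alone, 7 without a batch term and 6 on sums. Nuclear copies called numbered 8 without robust estimation, 0 without a batch term and 8 on sums. The causes were not tested.

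Over all genes tested, replicate numbers gave no sign of pairing, since same-numbered libraries correlated at -0.034 to 0.033. Titles gave these numbers; the table's columns number 3 batch 1 libraries otherwise, and the other pairs correlated at -0.057 to 0.032, so no numbering reached 0.1. The block used the titles. The members alone were not correlated in this way, and by title number their extremes partly coincided. In batch 1, replicate 2 was highest for 32 of 37 members in fast and 36 in parental cells. Replicate 3 was lowest there for 36 and 31. In batch 2, replicate 2 was lowest for 32 in fast and 17 in parental cells. Whether the members' values are paired by number was not tested. A replicate block gave 19 members higher over all libraries, 20 in batch 2, 8 in batch 1 (2 lower), 4 for the difference and 9 nuclear copies called.

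Leaving out 1 library gave 8 to 22 members higher over all libraries, 6 to 17 in batch 2, 1 to 15 in batch 1 (0 to 1 lower), 0 to 2 for the difference, 7 to 12 between batches of fast (0 to 1 lower) and 4 to 11 (1 to 3 lower) between batches of parental cells. It gave 4 to 10 nuclear copies called. The removal of parental batch 1 replicate 2 gave the highest count in 5 of these 6 comparisons. The shares of counts moved by less than 1 SD under every denominator. A mean of 3 libraries cannot move by 1 SD when 1 is left out, so only ranges are given for that. The messenger RNA share was then 2.46% to 2.75% in fast batch 2 and 2.16% to 2.24% in parental batch 2. In batch 1 it was 2.04% to 2.31% in fast and 1.99% to 2.34% in parental cells. Depth did not limit the common members; MT-TD, at 92 to 284 counts, is the least precise in counting.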
